A study of Mus musculus with 72 samples.

Results

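The genes described here encode ribosome biogenesis factors named Utp, Nop, Nol and Rrp in mouse embryonic stem cells. They are the protein-coding genes whose symbol starts with one of these names followed by a digit, without pseudogenes, and with a mean of at least 400 thymidine (T) counts over exons in the whole-cell libraries. Of 36 matching symbols 35 passed, out of 12793 protein-coding genes that reach this minimum in the series. Nol4 was the gene just outside (mean T count 12.4), and Nol3 was just inside (459.9). Cells were E14TG2a, a mouse embryonic stem cell line, grown in 2i + LIF medium, and every culture received 4-thiouridine (4sU), a uridine analog that is read as a T-to-C conversion after alkylation and so marks RNA made during labeling. Each culture was taken as whole cells and split by sequential detergent extraction into cytosol, membrane and nucleus, and poly(A) RNA was sequenced. Labeling lasted 15, 20 or 30 min in replicates 1 and 2. It lasted 20, 40, 60 or 120 min in replicates 3 and 4. In replicates 5 and 6 it lasted 60 or 120 min, giving 18 libraries per fraction and 72 in all. The labels give 500 µM 4sU up to 40 min and 100 µM for 60 and 120 min, whereas the study's methods give the higher dose for part of the 60 min cultures and leave out long labeling at that dose. The 8 libraries of 120 min in replicates 3 and 4 were therefore set aside for fraction and labeling results, leaving 16 libraries per fraction, and dose and replicate pair cannot be told apart at 60 min. At 60 min the nuclear conversion rate, given per library by the authors, was 7.66% and 8.29% in replicates 3 and 4. It was 3.25% and 3.53% in replicates 5 and 6. In replicate 3 it rose from 3.37% at 20 min to 10.4% at 120 min, and in replicate 5 from 3.25% at 60 min to 3.81% at 120 min. The study describes a rise at its higher dose and a constant rate at its lower dose. The dose of each culture was not tested. No unlabeled control was analysed here.

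Ribosomes are assembled in the nucleolus, where RNA polymerase I makes the precursor of 18S, 5.8S and 28S rRNA. Small nucleolar ribonucleoproteins (snoRNPs) modify this precursor, the small subunit processome folds and cleaves its 5′ part, and a separate set of factors assembles the large subunit. Embryonic stem cells divide fast and are known for a high demand for ribosomes. By role, 3 members belong to the snoRNP core, 20 to small subunit processing and 10 to large subunit assembly, while Nol3, an apoptosis repressor, and Nol4l carry the name without being known as assembly factors.

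Reads on genes ranged from 13185351 to 52975732 per library (median 21494524.5). All 8 embryonic stem cell markers stood above 1 CPM (a gene's reads scaled to the reads on genes of its library) in every fraction (summed level in whole cells 4423 to 6384 CPM), and 7 of 8 markers of other lineages were below 1, with sums of 3.85 to 19.0 in whole cells. The 5 nuclear RNA markers summed to a median of 1934 CPM in the nucleus against 435 in the cytosol, the 6 membrane-bound mRNA markers to 8984 in the membrane against 623 in the cytosol, and the 6 cytosolic mRNA markers to 26822 in the cytosol against 11537 in the nucleus. The 13 mitochondrial protein-coding genes summed to a median of 101712 CPM in the membrane, 8161 in the nucleus and 1237 in the cytosol. In the nucleus the membrane-bound mRNA markers summed to a median of 2881 CPM, also above their cytosolic value. The study describes a slight contamination of its nuclear fraction with mitochondria. The part of such carry-over in the nucleus versus cytosol values below was not tested. The whole-cell libraries of replicate 6 stood apart: the median gene's new share was 0.378 at 60 min and 0.175 at 120 min, against 0.220 and 0.391 in replicate 5, which goes against their labeling times. Whole-cell shares below include these 2 libraries; without them the largest move of a member's relative share was 0.10 on the log2 scale, and 2 of 21 calls were lost (Nop10 at -0.41 and Rrp1 at -0.499).

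RefSeq promoters (250 bases before to 50 after the start, GRCm38.p6) were found for 28 of the 35 members, 33 promoters in all. The E-box CACGTG, the same on both strands and the known binding motif of Myc and related factors, was in 21.2% of the member promoters and in 8.04% of all 20103 promoters of protein-coding genes. It lay in the promoters of Nol11, Nop2, Rrp7a, Utp14b, Utp18, Utp20 and Utp4. The 80 bases before the start are shown for the 4 members whose E-box lies less than 100 bases upstream, with the E-box in capitals, and their new shares are given below.
Nol11 (chr11:107189382-107189461, minus strand): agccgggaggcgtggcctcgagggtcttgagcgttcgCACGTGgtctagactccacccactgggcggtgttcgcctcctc
Nop2 (chr6:125131803-125131882, plus strand): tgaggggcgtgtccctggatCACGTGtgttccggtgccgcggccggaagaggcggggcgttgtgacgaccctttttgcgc
Utp14b (chr1:78658360-78658439, plus strand): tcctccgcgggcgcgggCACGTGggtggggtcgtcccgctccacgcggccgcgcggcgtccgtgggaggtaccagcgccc
Utp18 (chr11:93885767-93885846, minus strand): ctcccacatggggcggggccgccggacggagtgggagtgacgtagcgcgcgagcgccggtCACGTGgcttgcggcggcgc
The E-box began 43, 60, 63 and 20 bases before the start in Nol11, Nop2, Utp14b and Utp18. Other motifs were searched on both strands. GGGCGG was in 75.8% of member promoters and 47.8% of all, CCGGAAG in 30.3% and 11.9%, ATGGCG in 15.2% and 11.1%, CCAAT in 33.3% and 37.8%, TATAAA in 9.09% and 12.1%, and GCGCATG in 0 of 33 and 4.95%. A match is a run of letters and not a measured binding site.

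The members were well expressed in whole cells. On a scale of length-normalized expression (reads per kilobase of exon, scaled to the same sum in every library), the median member stood at 70.2 and the median of 11177 protein-coding genes at 1.5 or more stood at 18.9. Nop56, a core protein of the box C/D snoRNPs that guide rRNA methylation, was the most abundant member per length, with levels of 173 to 385 in the 16 whole-cell libraries (median 341). Nop10, a core protein of the H/ACA snoRNPs that guide pseudouridylation, followed at 161 to 289 (median 218), and Nop2, a methyltransferase of 28S rRNA, at 97.0 to 273 (median 195). These ranges overlap, so the order of these 3 neighbours does not hold in every library. Utp3 (median 153), Nop14 (149) and Rrp1 (148) came next with ranges that also overlap. The lowest members were Nol3 (median 0.916), Nol4l (3.69) and Utp14b (16.7). Nol3 had a median of 1.05 CPM in whole cells.

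The nucleus was compared with the cytosol to ask which members are enriched in either. Values are scaled within each library, so that higher or lower means a larger or smaller part of the poly(A) RNA of that fraction and not more or fewer molecules per cell. Poly(A) RNA of Utp20, Nop56, Rrp12 and Nop2 was enriched in the nucleus, and that of Nol12, Rrp15, Nop16 and Nol7 in the cytosol. Of these 8 only Nop2 lost its call under an alternative, in 3 of 12: 0.45 with counts summed per replicate, 0.498 with the 120 min libraries of replicates 3 and 4 and 0.48 without replicate 4. In those 3 settings 3 members were called higher and 21, 20 and 17 lower, where 65.1%, 68.4% and 66.0% of all genes were called in either direction. Of 35 members 5 were called higher in the nucleus and 12 lower, with a median log2 difference of -0.26. Over all 16093 genes tested 43.1% were called higher and 21.4% lower, with a median of 0.29. A call is a Benjamini-Hochberg adjusted p under 0.05 in edgeR's quasi-likelihood test together with a log2 difference over 0.5 in size. The zero point moved between settings: the median of all genes was 0.18 with RLE normalization and ranged from -0.01 (without replicate 4) to 0.31 (without replicate 6) over 13 settings, and the share of higher among all calls from 52.7% to 68.4% (66.8% as reported). The members' median stood -0.55 from that of all genes, and between -0.69 and -0.44 over those settings.

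**Figure D1:**
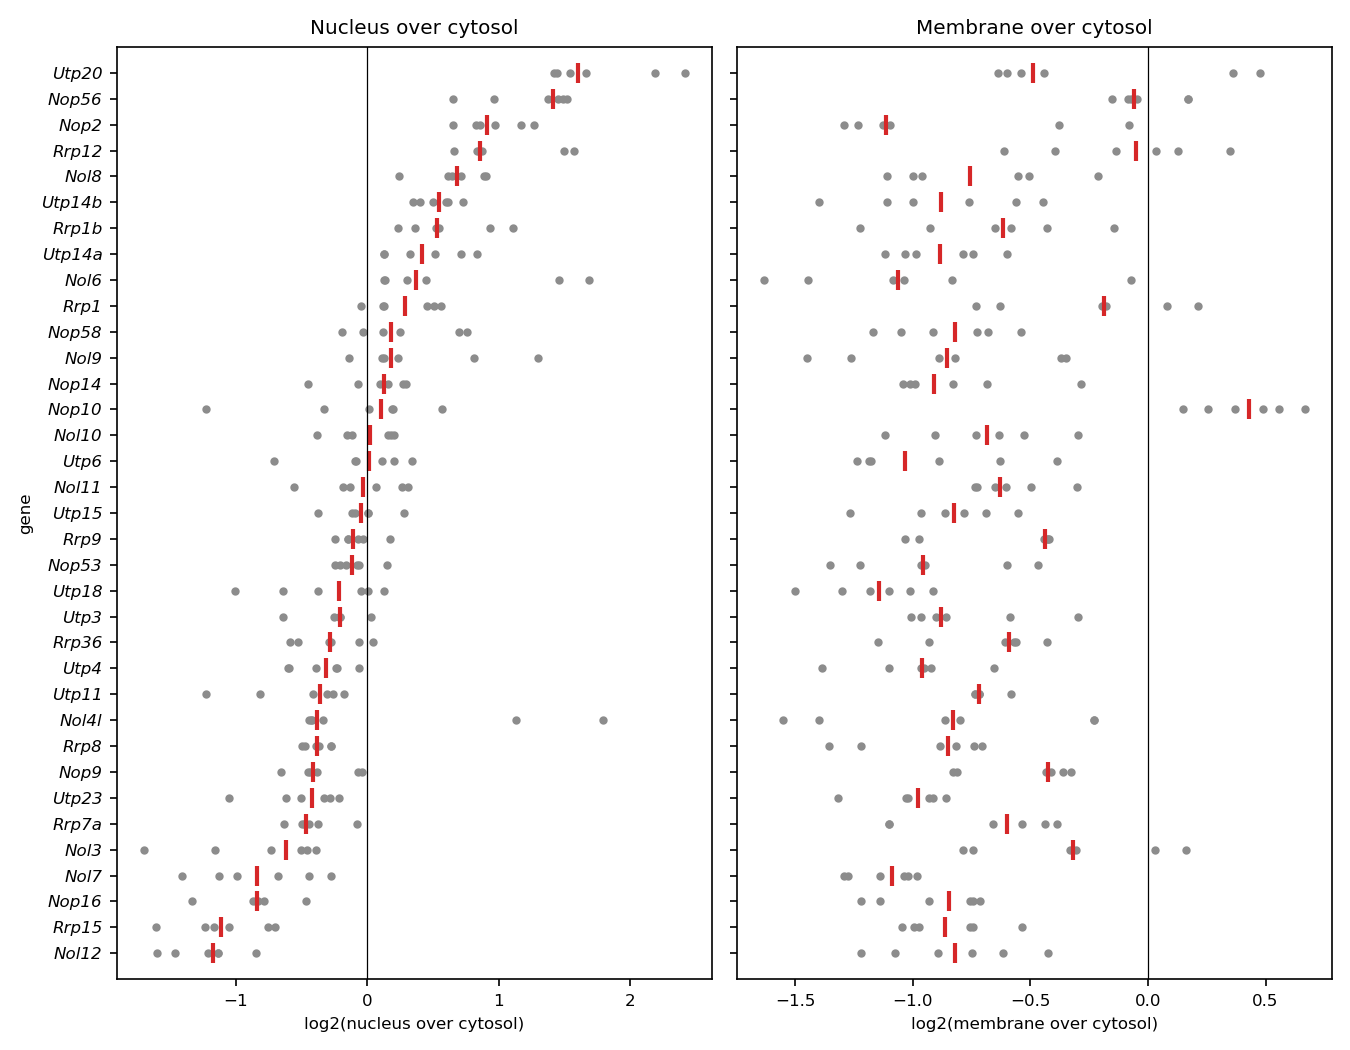
Log2 ratio of length-normalized expression in the nucleus (left) or membrane (right) over the cytosol for the 35 members, ordered by the nuclear ratio. Grey points are the medians of the cultures of each of 6 replicates and red bars the median over replicates; Utp20, Nop56, Nop2 and Rrp12 sit at the top left and Nop10 is the member whose membrane points all lie right of 0.

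Utp20, a giant scaffold protein of the small subunit processome, was the most nuclear member. Its level was 46.1 to 182 (median 112) in the 16 nuclear libraries, 21.6 to 39.5 (median 34.1) in the cytosol, 14.1 to 47.8 (median 25.6) in the membrane and 18.5 to 104 (median 62.9) in whole cells. The nuclear and cytosolic ranges did not overlap. Within each culture the nucleus exceeded the cytosol, in 16 of 16, by 2.04 to 6.05 times (median 3.18). The median ratio per replicate was 5.33 and 4.55 in replicates 3 and 4, and 2.67 to 3.16 in replicates 1, 2, 5 and 6. The log2 difference in read counts was 1.58 ± 0.08 (SE), with an edgeR adjusted p of 7.9e-27, and 1.29 relative to the median gene. Nop56 ranged from 225 to 784 (median 584) in the nucleus and from 145 to 278 (median 207) in the cytosol. Its nucleus exceeded its cytosol in 16 of 16 cultures, by 1.55 to 3.48 times, with a log2 difference of 1.11 ± 0.07 and an edgeR adjusted p of 3.45e-21. Nop56 holds 5 annotated snoRNA genes on its strand and Nop58 holds 4, yet the partner Nop58 had nuclear levels of 76.8 to 212 (median 177) that overlap its cytosolic levels of 83.0 to 215 (median 111). The Nop58 log2 difference was 0.09 ± 0.10 (edgeR adjusted p = 0.40), and its sign changed with the setting. Nop53, a 60S factor that holds the snoRNA gene Snord23, stood at -0.34.

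Rrp12, a HEAT-repeat protein of small subunit maturation, was the third member by nuclear excess, with a log2 difference of 0.86 ± 0.07 (edgeR adjusted p = 1.2e-16). Its nuclear libraries held 86.2 to 155 CPM and its cytosolic libraries 49.9 to 66.0, which do not overlap. Nop2 was 187 to 495 (median 325) in the nucleus and 126 to 201 (median 172) in the cytosol, a log2 difference of 0.79 ± 0.07 (edgeR adjusted p = 3.9e-15), and the nucleus was higher in 16 of 16 cultures. Nol6, which works with Rrp7a in small subunit assembly, passed narrowly at 0.52 ± 0.12 and was not called in 9 of 12 alternatives (0.12 without replicate 4). Rrp1b (0.44 ± 0.07) and Utp14a (0.24 ± 0.08) did not pass the size threshold. Nop10 stood at -0.24 ± 0.13 (edgeR adjusted p = 0.080).

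At the other end, Nol12 had levels of 12.9 to 31.8 (median 16.6) in the nucleus and 28.7 to 65.8 (median 38.2) in the cytosol. Its cytosol exceeded its nucleus in all 16 cultures, with nucleus over cytosol ratios of 0.266 to 0.629. The log2 difference was -1.43 ± 0.09 (edgeR adjusted p = 8.6e-22). Rrp15, a 60S factor, stood at -1.26 ± 0.08 (edgeR adjusted p = 4.2e-22) and Nop16, also a 60S factor, at -1.07 ± 0.08 (edgeR adjusted p = 3.1e-18). Rrp15 had a median of 48.4 in the nucleus (highest 60.6) and of 91.6 in the cytosol (highest 149.9), without overlap. Nop16 ranged from 50.4 to 97.3 in the nucleus and from 85.3 to 189 in the cytosol, which overlap on this scale and not in CPM. The other members called lower in the nucleus were Nol7 (-1.03), Nol3 (-0.94), Utp11 (-0.70), Utp23 (-0.70), Rrp7a (-0.63), Rrp8 (-0.58), Nop9 (-0.53), Utp4 (-0.52) and Utp18 (-0.52). By role, 3 of 20 small subunit members were called higher and 7 lower (median -0.27), 1 of 10 large subunit members higher and 4 lower (median -0.14), and 1 of 3 snoRNP members higher and 0 lower.

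Other genes of the pathway come from lists set apart from the members. Of 29 further 40S factors tested 6 were called higher in the nucleus and 9 lower (median -0.25), of 34 further 60S factors 7 and 11 (median -0.24), and of 10 further snoRNP core proteins and chaperones 0 and 4 (median -0.49). RNA polymerase I subunits and factors stood at 4 higher and 1 lower of 11 (median 0.22), beside 0.29 for all genes. Among the 35 members the log2 difference and exon length had a Spearman rho of 0.44, against 0.19 over 16071 genes. These are descriptions across genes, which share libraries and are not independent replicates.

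Most members had lower estimates in the membrane than in the cytosol, and Nop10 went the other way. Of 35 members 1 was called higher in the membrane (24.7% of all genes) and 6 lower (13.6% of all genes), with a median log2 difference of -0.41 against -0.16 over all genes. Nop10 had membrane levels of 242 to 458 (median 289) and cytosolic levels of 163 to 267 (median 236), which overlap. Within cultures the membrane was higher in 16 of 16, by 1.03 to 1.93 times. The median Nop10 ratio of 1.28 lies in the range that the study classes as cytosol-localized, by its ratio of averaged levels. The log2 difference was 0.86 ± 0.13 (edgeR adjusted p = 2.7e-08), or 1.01 relative to the median gene and 0.83 to 1.09 over 13 settings. Nop56 (0.41 ± 0.07) and Rrp12 (0.29 ± 0.07) were the next highest and did not pass the size threshold, nor did Utp20 (0.20 ± 0.08), Rrp1b (-0.25 ± 0.07), Nop2 (-0.40 ± 0.07), Nop58 (-0.43 ± 0.10) or Utp14a (-0.47 ± 0.08). For Utp20 the membrane over cytosol ratio was 1.39 and 1.28 in replicates 3 and 4, and 0.643 to 0.736 in replicates 1, 2, 5 and 6. The fit gives 1 value for all pairs and does not show this split.

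The members lowest in the membrane were Utp18, a UtpB complex protein of the processome (-0.73 ± 0.10, edgeR adjusted p = 1.2e-09), Nol7 (-0.70 ± 0.09, edgeR adjusted p = 2.1e-09) and Nol6 (-0.61 ± 0.12, edgeR adjusted p = 6.0e-06). Utp4 (-0.59), Utp23 (-0.56) and Rrp8 (-0.53) were also called. The count depended on the setting: with another normalization or DESeq2 it was 10, without replicate 2 it was 18, without replicate 5 it was 19, and without a filter on low counts it was 17 of 35, with the same 7 calls among them each time. Over all genes 40.3%, 40.7%, 49.4%, 50.5% and 24.8% were called in either direction in these settings, in the same order. The share as reported was 38.4%. With all genes, the share of higher among calls fell from 64.5% to 46.0% without replicate 5. The other pathway lists had 1 higher and 8 lower of 29 (40S), 1 and 11 of 34 (60S), 0 and 1 of 10 (snoRNP) and 0 and 0 of 11 (RNA polymerase I). Utp14b, a retrogene copy of Utp14a, overlaps Acsl3 on the same strand. Acsl3 stood at 4.43 in the membrane against the cytosol while Utp14b stood at -0.43 and Utp14a at -0.47. A further 14 members overlap a gene on the other strand, and although the libraries were stranded, the strand setting of the counting is not given in the sources used here.

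Read counts of the members did not pass the test between labeling times. The 120 against 20 min contrast in replicates 3 and 4 uses the 120 min libraries set aside above, whose dose is uncertain. By the labels, which differ from the study's methods, this contrast changes the dose as well as the time. The study left out long labeling at its higher dose, where it found changed genes in whole cells. The part of dose in the values of this contrast was not tested. At 120 min against 20 min in replicates 3 and 4, 0 of 35 members were called in whole cells, nucleus, cytosol or membrane by edgeR, where 0.113%, 2.91%, 1.04% and 0.0741% of all genes were called in either direction. At an unadjusted p under 0.05 the members counted 0 in whole cells, 14 in the nucleus, 2 in the cytosol and 1 in the membrane, where 9.82%, 21.7%, 13.0% and 6.96% of all genes did. DESeq2 called 2 members and 5.47% of all genes in the nucleus and 0 members in the other 3. In the nucleus 31 of 35 estimates lay above 0, with a median log2 difference of 0.27 against 0.02 over all genes, and in whole cells 29 of 35, with 0.12 against -0.01. In the cytosol 21 and in the membrane 22 of 35 lay above 0. In the nuclear contrast the 6 cytosolic mRNA markers had a median of 0.62 (6 of 6 above 0) and the 5 nuclear RNA markers of -0.44 (0 of 5 above 0). The part of this shift in the members' values was not tested. Against the same 20 min libraries the members' nuclear medians were 0.28 at 40 min and 0.25 at 60 min. With the replicate number as a block 3 members were called in the nucleus, Rrp7a and Nop53 higher and Nol4l lower, where 10.1% of all genes were called. In the cytosol the count was 2 (Nol6 and Rrp12) without replicate 3, where 5.10% of all genes were called.

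In the nucleus the highest estimates for 120 against 20 min were Nol3 (0.81 ± 0.58), Rrp7a (0.60 ± 0.17, edgeR adjusted p = 0.063) and Nop53 (0.52 ± 0.24), and the lowest were Nol4l (-0.81 ± 0.26, edgeR adjusted p = 0.087), Nop58 (-0.08 ± 0.17) and Nop56 (-0.06 ± 0.18). Utp20 stood at 0.47 ± 0.16 (edgeR adjusted p = 0.11), Nop10 at 0.41 ± 0.29, Nop2 at 0.20 ± 0.17, Rrp1b at 0.16 ± 0.20 and Utp14a at 0.03 ± 0.13. In the cytosol the estimates ran from -0.34 ± 0.19 (Nol8), -0.20 ± 0.19 (Utp23) and -0.17 ± 0.12 (Rrp8) to 0.30 ± 0.14 (Rrp12), 0.31 ± 0.20 (Nol6) and 0.35 ± 0.36 (Nol3). There Nop10 stood at -0.13, Nop58 at -0.05, Nop56 at 0.02, Utp14a at 0.04, Rrp1b at 0.07, Nop2 at 0.07 and Utp20 at 0.26. In the membrane they ran from -0.77 ± 0.44 (Nol4l), -0.40 ± 0.40 (Nol3) and -0.23 ± 0.18 (Utp23) to 0.27 ± 0.17 (Rrp36), 0.28 ± 0.18 (Rrp1) and 0.40 ± 0.16 (Nol7). There Nop2 stood at -0.04, Utp20 at -0.0019, Rrp1b at 0.05, Nop58 at 0.07, Nop10 at 0.08, Utp14a at 0.25 and Nop56 at 0.26.

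In whole cells the 120 against 20 min estimates ran from -0.39 ± 0.35 (Nol4l), -0.11 ± 0.21 (Nol8) and -0.11 ± 0.16 (Utp15) to 0.23 ± 0.16 (Utp14a), 0.26 ± 0.19 (Utp20) and 0.31 ± 0.23 (Utp14b). Nop56 stood at 0.01, Nop2 at 0.04, Nop58 at 0.04, Rrp1b at 0.05 and Nop10 at 0.20. Neither 60 against 20 min (replicates 3 and 4) nor 120 against 60 min (replicates 5 and 6) gave a call in whole cells. In each, 0 of 35 members and 0.0% of 16858 genes were called, with 0 members at an unadjusted p under 0.05 and 0 called by DESeq2. The 120 against 60 min contrast holds the whole-cell libraries of replicate 6, whose new shares went against their labeling times. Its lack of calls therefore cannot decide whether levels changed between these times. By the labels, whose doses are uncertain here, the 60 against 20 min contrast also changes the dose, as does that of 120 against 20 min. The 60 against 20 min estimates ran from -0.62 ± 0.40 (Nol3), -0.27 ± 0.34 (Nol4l) and -0.26 ± 0.23 (Utp14b) to 0.28 ± 0.22 (Nop53), 0.34 ± 0.23 (Nol12) and 0.38 ± 0.26 (Nop10). Nop58 stood at -0.07, Utp20 at -0.05, Rrp1b at -0.02, Nop56 at 0.03, Utp14a at 0.03 and Nop2 at 0.05. The 120 against 60 min estimates ran from -0.36 ± 0.23 (Nol12), -0.35 ± 0.22 (Nop53) and -0.34 ± 0.26 (Nop10) to 0.20 ± 0.21 (Nol8), 0.24 ± 0.19 (Utp20) and 0.26 ± 0.23 (Utp14b). Nop56 stood at -0.12, Nop2 at -0.08, Utp14a at -0.06, Nop58 at 0.03 and Rrp1b at 0.15.

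The new share of a gene estimates the fraction of its exon RNA made since 4sU was added. It was computed as T-to-C conversions over T counts divided by the conversion rate of the library. No background of conversions in unlabeled RNA was taken off. At 15 min in replicates 1 and 2, nuclear exons over 60 kb from the 3′ end averaged 0.015 (Utp20) and 0.018 (Nol10). The median gene stood at 0.016 in the cytosol there. The part of background in low shares was not tested. Each share was compared with the share of the median gene in the same library, which lessens the effect of an error in the conversion rate. The pseudocount of 0.005 keeps that error from cancelling in full where shares are low. The members spread widely around the median gene. Nol4l, Utp14b, Utp3, Rrp8 and Utp23 were called higher than the median gene in all 4 fractions, and Nol7, Utp18, Utp20, Utp11, Rrp9, Nop9, Rrp12 and Rrp1 were called lower in all 4. These lists depended on the pseudocount: with 0.02 in place of 0.005 they held Nol4l, Utp14b, Rrp8 and Utp23, and Nol7 and Rrp9. With times of 40 min or more 3 of the 5 and 5 of the 8 remained, and without replicate 4 all 5 and 6 of the 8 (without Utp11 and Utp18). Nol3 had too few T counts and was not tested.

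**Figure D2:**
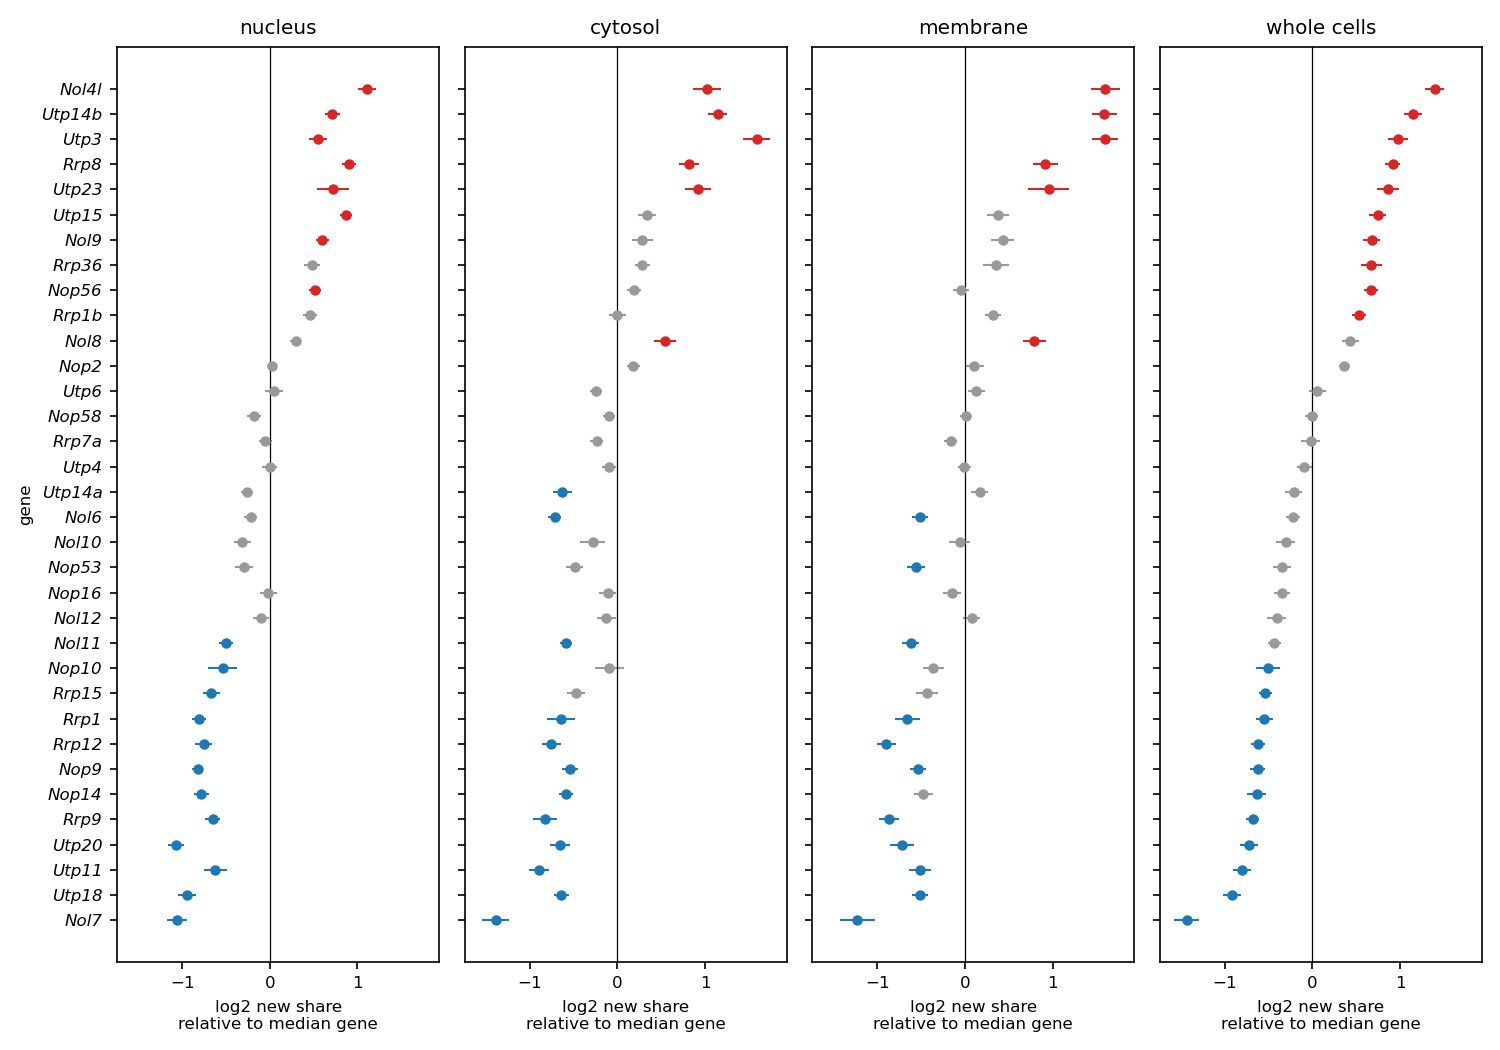
Log2 new share relative to the median gene for 34 members in 4 fractions, ordered by the whole-cell value; points are means over 16 libraries, bars the standard error, red called higher, blue called lower and grey not called. Nol4l, Utp14b and Utp3 stand at the top and Nol7 at the bottom.

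Of 34 members tested in the nucleus 8 were called higher and 12 lower, against 24.7% and 30.1% of 13022 genes. In the cytosol 6 and 12 were called, against 28.2% and 32.1% of 12328 genes, and in the membrane 6 and 11, against 28.4% and 31.9%. In whole cells 10 and 11 were called, against 26.8% and 31.8%, and without the 2 libraries of replicate 6 the counts were 10 and 9. The members' medians were -0.14, -0.18, -0.05 and -0.22 in this order, beside -0.08 to -0.10 over all genes. By role the small subunit members leaned low, with 3 of 20 called higher and 11 lower in the cytosol (median -0.56), whereas the large subunit members had 2 of 10 and 1 (median -0.05). The further 40S factors outside the named families had 2 of 29 higher and 16 lower (median -0.54), the further 60S factors 5 of 35 and 12 (median -0.33), the snoRNP list 0 of 10 and 3, and RNA polymerase I 1 of 11 and 3.

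Utp3, a processome protein encoded by an intronless gene in the annotation, had the highest relative share in the cytosol. In replicates 1 and 2 its cytosolic share was 0.080 and 0.057 at 15 min, 0.131 and 0.108 at 20 min and 0.210 and 0.198 at 30 min, while the median gene stood at 0.016, 0.020 and 0.030 on average. Each of these libraries lies above the median gene. In replicates 5 and 6 it was 0.448 and 0.379 at 60 min and on average 0.570 at 120 min, with the median gene at 0.193 and 0.369. Relative to the median gene the log2 share was 1.59 ± 0.15 for cytosol (limma adjusted p = 6.9e-08), 1.60 ± 0.15 for membrane (limma adjusted p = 3.9e-08), 0.54 for nucleus and 0.97 ± 0.11 for whole cells (limma adjusted p = 3.9e-07).

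Utp14b had cytosolic shares of 0.461 and 0.509 at 60 min and 0.673 and 0.773 at 120 min in replicates 5 and 6. Its relative log2 share was 0.71, 1.14 ± 0.11, 1.59 ± 0.14 and 1.15 ± 0.10 in nucleus, cytosol, membrane and whole cells. Its parent gene Utp14a stood at -0.26, -0.63 ± 0.11 (called lower), 0.17 and -0.22 in this order. Utp14a also had the largest intron part of its T counts in whole cells. Nol4l stood at 1.11 ± 0.10, 1.02 ± 0.16, 1.60 ± 0.16 and 1.39 ± 0.10 in nucleus, cytosol, membrane and whole cells (limma adjusted p = 3.1e-08, 1.8e-05, 1.2e-07 and 2.1e-09). Rrp8, a methyltransferase of 28S rRNA, stood at 0.91 ± 0.08, 0.82, 0.92 and 0.92 ± 0.09, and Utp23, a small subunit factor, at 0.72, 0.92 ± 0.15, 0.95 and 0.86. Utp15, a t-UTP protein that links the processome to rRNA transcription, stood at 0.87 ± 0.07 in the nucleus (limma adjusted p = 2.5e-09) and 0.75 in whole cells, both called, and at 0.34 and 0.37 in cytosol and membrane, neither called.

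At the slow end Nol7, a small subunit factor, had cytosolic shares of 0.071 and 0.041 at 60 min and 0.084 and 0.103 at 120 min in replicates 5 and 6. Its nuclear shares there were 0.090 and 0.066 at 60 min and 0.179 and 0.175 at 120 min. All 8 values lie below the median gene. The relative log2 share was -1.06 ± 0.11, -1.39 ± 0.16, -1.23 ± 0.20 and -1.43 ± 0.14 in nucleus, cytosol, membrane and whole cells (limma adjusted p = 1.1e-07, 4.4e-07, 2.5e-05 and 5.6e-08). Utp20 stood at -1.07 ± 0.09 in the nucleus (limma adjusted p = 1.1e-08) and at -0.66, -0.72 and -0.72 in cytosol, membrane and whole cells. Exons far from the 3′ end of this long gene were labeled later, as given below. Their part in its gene-level shares was not tested. Utp18 stood at -0.95 ± 0.10 in the nucleus (limma adjusted p = 1.7e-07) and -0.92 ± 0.11 in whole cells. In the cytosol Utp11 (-0.89 ± 0.12) and Rrp9, a protein of the U3 snoRNP (-0.82 ± 0.14), were the next lowest, in the membrane Rrp12 (-0.90 ± 0.11) and Rrp9 (-0.86 ± 0.11), and in whole cells Utp11 (-0.81 ± 0.10).

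**Figure D3:**
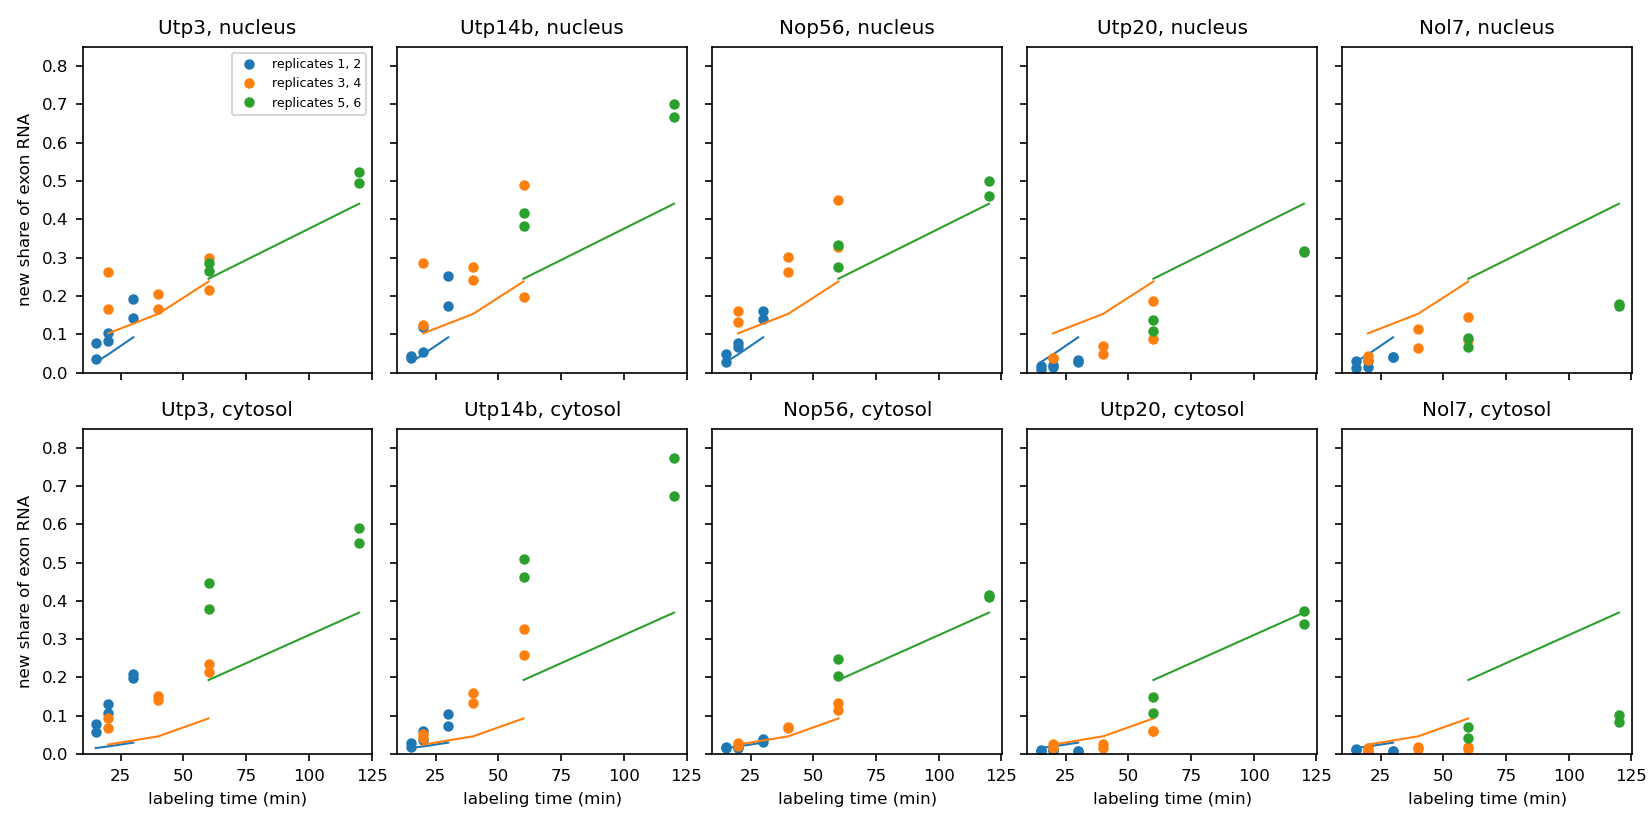
New share of exon RNA against labeling time for 5 members in nucleus (top) and cytosol (bottom); points are libraries coloured by replicate pair and lines join the mean of the median gene in that pair. Utp3 and Utp14b lie above the lines in the cytosol and Nol7 lies below them.

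Of the snoRNP proteins Nop58 lay near the median gene, while Nop56 and Nop10 were called in nucleus and whole cells. Nop56 stood at 0.52 ± 0.07 in the nucleus and 0.67 ± 0.08 in whole cells, both called, and at 0.19 and -0.04 in cytosol and membrane. Nop58 stood at -0.18, -0.09, 0.01 and -0.01 in nucleus, cytosol, membrane and whole cells, and Nop10 at -0.54 ± 0.16, -0.09, -0.36 and -0.51 ± 0.14, the first and last called lower. Nop2 stood at 0.03, 0.18, 0.11 and 0.37, and Rrp1b at 0.46, 0.00, 0.32 and 0.53, the last called higher. Nol9, a polynucleotide kinase of pre-rRNA processing, and Rrp36 were called higher in whole cells (0.68 and 0.67), and Nol8 in cytosol and membrane (0.55 and 0.79). Nop14, Rrp15, Nol11, Nol6 and Nop53 were called lower in at least 1 fraction, while Nol10, Nol12, Nop2, Nop16, Nop58, Rrp7a, Utp4 and Utp6 were called in none. The E-box members shown above fell on both sides, with whole-cell values of -0.43 (Nol11), 0.37 (Nop2), 1.15 (Utp14b) and -0.92 (Utp18). Across 34 members the relative shares in nucleus and cytosol had a Spearman rho of 0.89, as a description of genes that share libraries.

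As a description in minutes, a curve of approach to full labeling was fitted to each member's shares, with the first 5 min taken off. The apparent half-life of the members had a median of 175 min in the nucleus (53.5 to 382) and 260 min in the cytosol (80.6 to 926), beside 136 and 214 min over all genes. It was longer in the cytosol than in the nucleus for 32 of 34 members and 84.4% of 11865 genes, and in replicates 5 and 6 alone for 27 of 34 members and 66.2% of genes. The value folds in supply from upstream pools and is not a decay rate. It differed between the replicate pairs, which also had different labeling times, so that pair and time cannot be told apart here. For Utp20 in the cytosol it was 1524 min in replicates 1 and 2, 696 min in 3 and 4 and 199 min in 5 and 6. In the nucleus the Utp20 values were 571, 290 and 225 min in the same order. The Rrp8 values were 76.6, 63.7 and 72.1 min in the nucleus and 282, 168 and 65.2 min in the cytosol. At 60 min the cytosolic share of the median gene was 0.093 in replicates 3 and 4 and 0.193 in replicates 5 and 6, and the nuclear share 0.238 and 0.245. Nop56 followed with cytosolic shares of 0.134 and 0.116 beside 0.249 and 0.204, and Utp20 with 0.059 and 0.061 beside 0.149 and 0.107.

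The share in the nucleus was then set against that in the cytosol, both relative to the median gene. Utp15 (0.54 ± 0.10, limma adjusted p = 0.00013) and Nol6 (0.51 ± 0.08, limma adjusted p = 2.1e-05) were called higher in the nucleus, and Utp3 (-1.03 ± 0.11, limma adjusted p = 3.0e-08) lower, 2 and 1 of 34 members against 7.89% and 17.8% of 11865 genes. Utp3 was thus further ahead of the median gene in the cytosol than in the nucleus. Its shares at 15 min in replicates 1 and 2 were 0.077 and 0.036 in the nucleus beside 0.080 and 0.057 in the cytosol, so they overlap, while the median gene stood at 0.027 and 0.016. Next in rank and not called were Nop10 (-0.44 ± 0.12), Utp14b (-0.42 ± 0.13), Utp20 (-0.41) and, on the other side, Rrp1b (0.47 ± 0.10). Utp14a stood at 0.38, Nop56 at 0.34, Nop58 at -0.08 and Nop2 at -0.15. With times of 40 min or more alone 7 members were called, 1 of them among these 3, and without replicate 2 the count was 1 (Utp3). Among the further lists 3 higher and 1 lower of 29 (40S), 2 and 2 of 35 (60S), 1 and 0 of 10 (snoRNP) and 2 and 0 of 11 (RNA polymerase I) were called.

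Introns in the nucleus, which mark unspliced RNA, were labeled ahead of exons in every member that could be tested. All 32 members were called higher in introns, none lower, with a median log2 difference of 2.18, and over 10380 genes 96.3% were called higher and 0.116% lower with a median of 1.91. The largest differences were those of Rrp12 (3.10 ± 0.18), Utp20 (3.01 ± 0.16) and Rrp9 (2.98 ± 0.18), with limma adjusted p of 2.7e-12, 5.1e-13 and 4.7e-12. The smallest were those of Nol4l (1.10 ± 0.16), Rrp1b (1.13 ± 0.09) and Utp15 (1.14 ± 0.10), with limma adjusted p of 1.2e-06, 2.1e-10 and 4.7e-10. In the Utp20 introns the share was 0.127 and 0.136 at 15 min and 0.818 and 0.824 at 40 min, whereas its exons stood at 0.068 and 0.048 at 40 min. Nop56 stood at 1.61, Utp14a at 1.78, Nop58 at 2.17 and Nop2 at 2.19. Nop10, Nol3 and Utp3, which has no intron in the annotation, were not tested.

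At the median member introns took a smaller part of the T counts than over all genes. The median member had 22.4% of its nuclear T counts in introns (27.9% over 11711 genes), 14.3% in whole cells (17.3%) and 4.81% in the cytosol (7.79%). In the nucleus 13 of 34 members lay above the median of all genes, in the cytosol 12, in the membrane 15 and in whole cells 12. The 34 include Utp3, which has no intron in the annotation. Nol7 (65.5%), Utp14a (58.8%) and Utp23 (52.3%) had the largest nuclear intron part and Nop10 (1.27%) and Utp14b (5.48%) the smallest above 0. Utp14a had 26.4% in the cytosol and 45.9% in the membrane, the highest values there of the 35 members. Nol7, Utp14a and Utp23 each overlap a gene on the other strand (Ranbp9, 9530027J09Rik and Gm34678). The part of these overlaps in the intron values was not tested.

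Exons far from the 3′ end of the long genes Nol10 and Utp20 were labeled later in the nucleus. For Nol10 (81638 bases), exons within 20 kb of the 3′ end had shares of 0.209 and 0.221 at 40 min in replicates 3 and 4, exons at 20 to 40 kb 0.121 in both and those over 60 kb away 0.007 and 0.014. At 120 min in replicates 5 and 6 these were 0.342 and 0.352, 0.419 and 0.439, and 0.171 and 0.238. For Utp20 (80198 bases) the nearest exons had 0.066 and 0.085 at 40 min and the farthest 0.010 and 0.029. At 120 min the Utp20 exons had 0.305 and 0.315 near the end and 0.324 and 0.369 over 60 kb away, so that their order was no longer the same. Nol4l (122510 bases) could not be compared in this way. At 60 min in replicates 3 and 4 its lowest nuclear T count was 7789 within 20 kb and 9 at 20 to 40 kb. The part of this in the new shares of Nol4l was not tested.

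**Figure D4:**
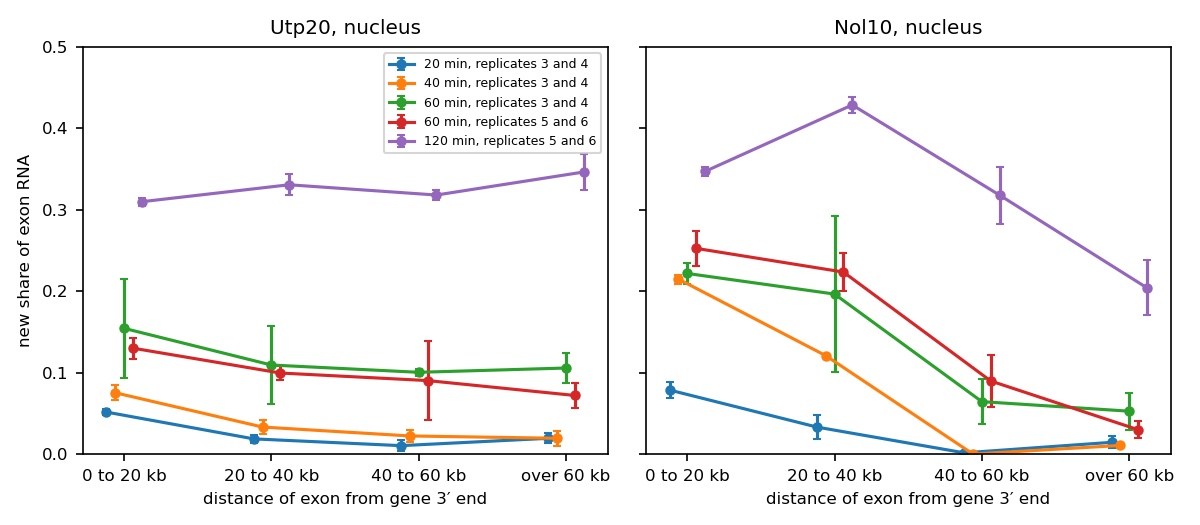
New share of nuclear exon RNA by distance of the exon from the 3′ end for Utp20 and Nol10; points are means of 2 libraries and bars span their values. At 40 min the nearest exons of both genes are the highest, and at 120 min the 4 distances of Utp20 lie close together while those of Nol10 do not.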

How the data were processed

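E14TG2a libraries of 4 fractions were aligned to GRCm38 by the authors; the submitters' processing notes name STAR 2.7.6, HTSeq 0.11.1 and RSEM 1.3.3, and the study's methods Gencode M14. The deposited files hold read counts per gene, T and T-to-C counts per gene, exon and intron, the ratio of the 2, and the conversion rate of each library as a fraction, all made by the authors. Recomputed ratios matched the deposited ones within 1.42e-13. Counts on lines that name no gene (30.4% to 48.8% per library) were left out. Of the gene identifiers 99.6% matched Gencode M21 on GRCm38, used for names and coordinates.

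Read counts were tested with edgeR 4.0.16 (TMM, filterByExpr), with DESeq2 1.42.0 as an alternative. Shares were tested with limma 3.58.1 on log2(share + 0.005) for genes with 400 T counts in every library, so that fold changes of low shares are understated. A call needed an adjusted p under 0.05 and a log2 difference over 0.5. In each comparison the 3 highest and lowest members are given in full, with Nop56, Nop58, Nop10, Nop2, Utp20, Utp14a and Rrp1b. The members and lists were chosen with earlier results of these data known. Replicates were independently passaged, but libraries of 1 replicate at several times enter as separate samples, so p-values measure the spread between these libraries.

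Per the study's methods the fractions of 1 replicate and time came from the same culture, which pairs them. The differences between replicates correlated across fractions with r of 0.21 to 0.71 for membrane and cytosol and -0.19 to 0.49 for nucleus and cytosol (above 0.1 in 8 of 8 and 6 of 8 groups). On simulated counts edgeR recovered 160 of 200 changed genes between times (11690 genes) and 200 of 200 between fractions (11994 genes), and limma 175 of 200 changed shares (13022 genes). The limma figure needed only an adjusted p under 0.05 and not the size threshold, so it is not the recovery of calls. Its simulated shares had no spread between libraries beyond that of counting. In bulk samples a change in RNA per cell and in cell number cannot be told apart. Alternatives were other scalings and filters, DESeq2, other pseudocounts and T minimums, longer times, a replicate block and leaving out each replicate.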

Additional observations from a re-analysis of the deposited data

Results flagged for a closer look

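The membrane over cytosol ratio of Utp11 in replicate 4 was 0.667, apart from the other 5 replicates at 0.601 to 0.608. It was the 1 of 70 ratios tested, each over 6 replicates, that lay this far from the rest, and chance marks about 1 in 20.

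The new share relative to the median gene differed between nucleus and cytosol for Nol6 (nucleus minus cytosol 0.51), Utp15 (0.54) and Utp3 (-1.03), by the limma test of the difference itself (adjusted p = 2.1e-05, 0.00013 and 3.0e-08). Without replicate 2 the values were 0.48, 0.43 and -0.95, and Utp3 alone passed the size threshold.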

How the results depend on the processing

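Each setting changed 1 choice at a time, except the counts summed per replicate, which changed the unit and the model and tested 19040 genes in place of 16093; the cause of a change was not tested. Of the 35 members, calls in the membrane versus cytosol counts were 7, 17 without a filter on low counts and 8 to 19 with 1 replicate left out (18 without replicate 2, 19 without replicate 5). In the nucleus versus cytosol counts they were 17, and 14 to 21 with 1 replicate left out. Over all genes 37.0% to 50.5% were called for the membrane and 61.1% to 67.1% for the nucleus with 1 replicate left out. With 1 replicate left out, calls of shares were 17 to 20 in nucleus and cytosol, 15 to 17 in the membrane, 19 to 22 in whole cells, 1 to 4 between nucleus and cytosol (1 without replicate 2), and 32 to 32 for introns versus exons. With a pseudocount of 0.02 they were 11 in the cytosol, 10 in the membrane, 14 in whole cells and 1 between nucleus and cytosol, and with 40 min or more 7 between nucleus and cytosol. Time contrasts had 0 calls, except in the nucleus for 120 versus 20 min (2 without a filter on low counts and 2 with DESeq2) and in the cytosol (0 to 2 with 1 replicate left out, the 2 without replicate 3). Whole-cell shares without the 2 libraries of replicate 6, an alternative chosen after seeing the data, had 19 calls.

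With the replicate number or culture as a block, 3 members were called for 120 versus 20 min in the nucleus. The block gave 17 calls for nucleus versus cytosol (24 with counts summed per replicate), 7 for membrane versus cytosol (8 summed), 19, 19, 16 and 21 for shares in nucleus, cytosol, membrane and whole cells, 3 between nucleus and cytosol and 32 for introns; it moved no other count of calls by over 1.5 times.

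The sign of some estimates that were not called changed under alternatives; they follow in log2 units. With RLE normalization, they were Nop58 -0.036 (nucleus versus cytosol counts), Utp20 0.0097 (120 versus 20 min in membrane). With no filter on low counts, they were Nop58 -0.078 (nucleus versus cytosol counts), Nop56 -0.011 (120 versus 20 min in whole cells), Utp14a -0.021 (120 versus 20 min in nucleus), Nop56 -0.0032 (120 versus 20 min in cytosol). With DESeq2, they were Nop58 -0.036 (nucleus versus cytosol counts), Utp20 0.0097 (120 versus 20 min in membrane). With replicate block, counts summed per replicate, they were Nop58 -0.26 (nucleus versus cytosol counts), Utp14a -0.10 (nucleus versus cytosol counts). With 120 min of replicates 3 and 4, they were Nop58 -0.28 (nucleus versus cytosol counts), Utp14a -0.11 (nucleus versus cytosol counts), Rrp1b -0.022 (the share in cytosol), Nop58 -0.037 (the share in membrane). With pseudocount 0.001, they were Rrp1b -0.013 (the share in cytosol). With 40 min or more, they were Nop56 0.11 (the share in membrane), Nop58 0.075 (the share in whole cells), Nop58 0.088 (new share, nucleus versus cytosol). With pseudocount 0.02, they were Nop58 0.0079 (the share in whole cells).

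With 1 replicate left out, the range of the estimates whose sign changed was as follows. For nucleus versus cytosol counts it was -0.20 to 0.25 (Nop58), -0.017 to 0.39 (Utp14a). For 120 versus 20 min in whole cells it was -0.0072 to 0.027 (Nop56), -0.030 to 0.12 (Nop58), -0.39 to 0.13 (Nol8), -0.070 to 0.43 (Nop10), -0.055 to 0.15 (Nop2). For 120 versus 20 min in nucleus it was -0.18 to 0.14 (Utp14a), -0.23 to 0.0066 (Nop56). For 120 versus 20 min in cytosol it was -0.11 to 0.60 (Nol6), -0.016 to 0.16 (Nop2), -0.032 to 0.088 (Nop56), -0.085 to 0.25 (Rrp1b), -0.033 to 0.49 (Utp20). For 120 versus 20 min in membrane it was -1.10 to 0.46 (Nol3), -0.11 to 0.29 (Nop10), -0.14 to 0.13 (Utp20). For 60 versus 20 min in whole cells it was -0.040 to 0.10 (Utp14a), -0.48 to 0.043 (Nol4l), -0.013 to 0.14 (Nop2), -0.025 to 0.097 (Nop56), -0.11 to 0.059 (Rrp1b), -0.18 to 0.076 (Utp20). For 120 versus 60 min in whole cells it was -0.80 to 0.13 (Nol12), -0.23 to 0.077 (Nop2), -0.70 to 0.086 (Nop53), -0.31 to 0.081 (Nop56), -0.20 to 0.081 (Utp14a), -0.019 to 0.54 (Utp20), -0.087 to 0.12 (Nop58). For the share in cytosol it was -0.27 to 0.056 (Nop10), -0.061 to 0.054 (Rrp1b). For the share in membrane it was -0.12 to 0.047 (Nop56), -0.011 to 0.030 (Nop58). For the share in whole cells it was -0.027 to 0.023 (Nop58).

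Depth limited Nol3, whose T counts fell below 400 in some libraries, so its share was not tested. Where leaving out a replicate leaves 1 sample in a group, that sample is assumed to vary like the others.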
